A study of Aspergillus nidulans with 2 samples.

Results

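In the mould Aspergillus nidulans (also called Emericella nidulans), pkaC is a protein kinase A gene and pdeB a phosphodiesterase gene. They are 2 of the 2064 genes on the array, and were followed by every probe that the platform annotation assigns to them: 2 probes of pkaC and 1 of pdeB, 3 of 3533 probes in all. Both genes were chosen by their log2 ratios between exposed and untreated mycelium, the comparison described here, so those ratios are given as a description and without a test. The microarrays were 2-colour and carried cDNA of expressed sequence tags. Strain FGSC 26 was cultured for 18 h at 37 °C and its mycelium was moved to fresh minimal-nitrate medium of pH 6.5. The culture description of both samples also lists 0.5% yeast extract. The exposed cultures received 0.8 mM menadione as the sodium bisulfite compound and the control cultures received none, and both were harvested after 6 h. Menadione is a quinone that generates superoxide inside cells. RNA of exposed and of untreated mycelium was hybridised together on 2 arrays with exchanged dyes: the exposed RNA carried Cy5 on one array (flip) and Cy3 on the other (flop). A ratio was present for 3049 probes of the flip array, for 2267 of the flop array and for 2265 on both. With 2 arrays the precision of each value is low. Nothing in the labels tells whether the arrays held RNA of separate cultures, so the spread between them, and each p-value, may cover technical error alone.

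The deposited table states neither the direction nor the logarithm base of its ratios. Values are read here as log2 of menadione over untreated, the likely direction because the exposed RNA is the first channel of both samples, and the arrays correlated at a Pearson r of 0.844 across 2265 probes, which are not independent. The opposite reading would exchange higher and lower for every gene below while leaving pkaC and pdeB on opposite sides of 0. The labelled material was mycelium, for which no defining marker with a symbol was listed. Of 9 probes of conidiation genes, 6 were empty on both arrays, among them both probes of brlA, the regulator that starts conidiation, while 482 of all 3533 probes (13.6%) were empty on both. Of the 3 conidiation probes with values on both arrays, the regulator gene abaA was lower by 1.99-fold (mean log2 ratio -0.995 ± 0.19, SD, n = 2; limma adjusted p = 0.0425, and 0.0549 with probes of a single array kept in the fit). The hydrophobin gene rodA, at -0.68 and -0.53, and the regulator gene wetA, at 0.26 and 0.92, did not pass. Fewer cells of a type and less RNA per cell cannot be told apart in such samples, and the part of conidiation in the ratios of pkaC and pdeB was not tested.

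Cyclic AMP is a second messenger that fungi use to couple carbon supply to growth, spore germination and development. Receptors in the plasma membrane act through heterotrimeric G proteins on adenylyl cyclase, which makes cyclic AMP. Cyclic AMP releases the catalytic subunit of protein kinase A from its regulatory subunit, and phosphodiesterases end the signal by hydrolysing cyclic AMP. The kinase gene pkaC therefore belongs to the output of the pathway and pdeB to its shut-off.

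The pkaC probe measured on both arrays (probe 2516, locus tag ANIA_06305) had a log2 ratio of -2.23 (flip array) and -2.34 (flop array). Both values were more than 4-fold lower with menadione, and they differed by 0.11, less than the median difference of 0.28 between the arrays over all 2265 probes. The mean was -2.29 ± 0.08 (SD, n = 2), a ratio 4.87-fold lower. Of the 2265 probes, 60 had a lower mean, which put pkaC at percentile 2.74. Among the 275 probes that carry a gene symbol, 10 lay lower.

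The only pdeB probe (probe 130, locus tag ANIA_02740) had a log2 ratio of 1.15 (flip array) and 1.07 (flop array). Both arrays were above 2-fold, and they differed by 0.08. The mean was 1.11 ± 0.06 (SD, n = 2), a ratio 2.16-fold higher with menadione. A higher mean was measured for 231 of the 2265 probes, so pdeB stood at percentile 89.8, nearer to the bulk of the probes than pkaC. On the flop array alone, whose values spread more widely, it stood at percentile 85.6, against 91.4 on the flip array.

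The pdeB probe and pkaC probe 2516 lay far apart on each array. The log2 ratio of pdeB exceeded that of this pkaC probe by 3.38 (flip) and by 3.41 (flop), with a mean of 3.40 ± 0.02 (SD, n = 2), a 10.5-fold difference between the ratios. This difference is between relative changes of the transcripts and says nothing of which transcript was more abundant.

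**Figure D1:**
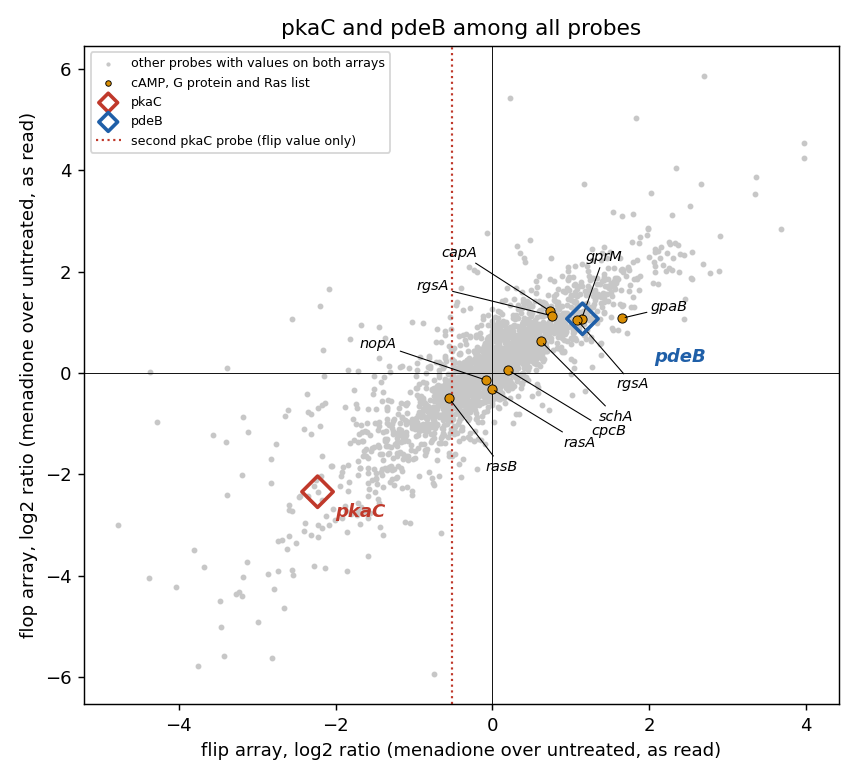
Log2 ratio of every probe with values on both arrays, flip array on the horizontal and flop array on the vertical axis, each point a probe. The open diamonds mark pkaC at -2.23 and -2.34 and pdeB at 1.15 and 1.07, filled circles mark the other probes of the cAMP, G protein and Ras list, and the dotted line marks the flip value of the other pkaC probe at -0.52. The diamonds lie on opposite sides of 0 along the diagonal.

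The other pkaC probe gave a much smaller ratio. Probe 3433 had a log2 ratio of -0.52 on the flip array, 1.43-fold lower, and no value on the flop array. On the flip array 695 of 3049 probes lay lower (percentile 23.0), and so did 147 of the 784 probes that were empty only on the flop array. For comparison, 11.9% of the 3049 flip values were at least 2-fold lower, a limit that probe 2516 passed and probe 3433 did not.

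The probes of pkaC thus shared a sign on the flip array but differed there by 1.71. Over 659 pairs of probes assigned to the same gene, from 434 genes, the median absolute difference on the flip array was 0.75. In 112 pairs (17.0%) the difference was at least as large as in the pkaC pair. Since pkaC was chosen by its ratios, a wide gap between its probes can follow from that choice, and this share is a description only. Among the 150 pairs with at least 1 probe 2-fold lower on the flip array, the other probe was also 2-fold lower in 16. Of all single flip values 11.9% were at least 2-fold lower, which is not a share of pairs. A gene with more than 2 probes gives several pairs, so the pairs are not independent. Probe 3433 belongs to the last 200 probe numbers of the array, of which 67% had no flop value, against 34.0% of the other 3333 probes; this division was chosen after the values had been seen. The sources used here do not say which part of the transcript either probe covers. Against probe 3433, the flip value of pdeB was higher by 1.67, in place of 3.38 against probe 2516. With both probes averaged on the flip array, the pkaC mean over the arrays was -1.86.

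**Figure D2:**
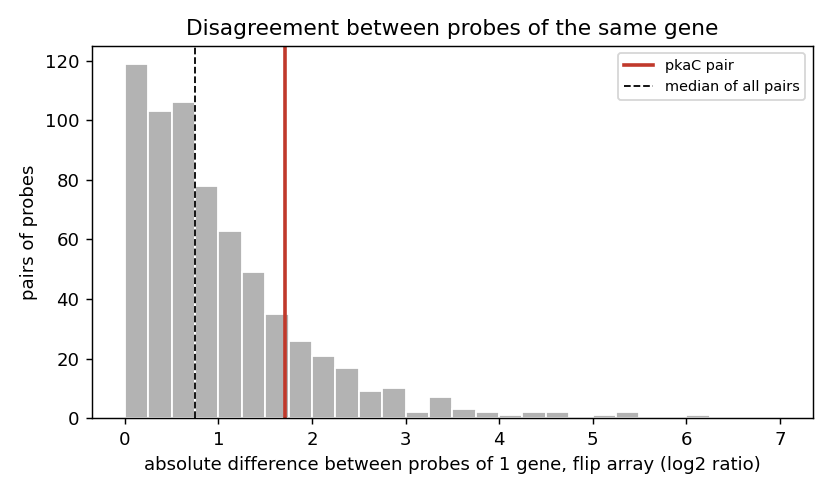
Number of pairs of probes of the same gene (vertical axis) by their absolute difference in log2 ratio on the flip array (horizontal axis, bins of 0.25), over 659 pairs. The solid line marks the pkaC pair at 1.71, in the upper tail, and the dashed line the median of 0.75.

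Among receptor and G protein genes, a receptor, an alpha subunit and a regulator of G protein signalling had higher ratios with menadione. An opsin-like gene and a beta-like gene were near 0. A beta subunit gene, measured on the flip array alone, was lower there. Whether these genes act on cyclic AMP in this mould was not tested. A list of cAMP, G protein and Ras genes was matched by symbol, so members known only by a locus tag are not counted. Apart from pkaC and pdeB it held 12 genes with 15 probes, of which 10 probes of 9 genes had values on both arrays. By limma (two-sided, Benjamini-Hochberg adjustment over 2265 probes) 4 of the 10 probes, from 3 genes, rose past an adjusted p of 0.05 and 0 fell (6 higher and 1 lower at an unadjusted p under 0.05). Of all 2265 probes, 24.6% passed, 12.2% higher and 12.4% lower. The median of the 10 probes was 0.79, beside 0.04 over all probes. At least 2-fold higher on both arrays were 3 of the 10 and at least 2-fold lower 0, against 8.83% and 9.36% of all probes. With probes of a single array kept in the fit, 2 of the 4 probes kept the call. The list was drawn up with earlier results of these data known, and its probes are few. Its shares are therefore a description and not a test of the list.

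Among the receptors, gprM, a seven-transmembrane protein of the G protein-coupled type, had log2 ratios of 1.14 on the flip and 1.07 on the flop array. It rose 2.15-fold (1.11 ± 0.05, SD, n = 2; limma adjusted p = 0.0361). The opsin-like gene nopA was close to 0 on both arrays, at -0.08 and -0.14, and its other probe had a flip value only, -0.54.

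Of the G protein genes, gpaB, which encodes an alpha subunit, had log2 ratios of 1.65 (flip) and 1.08 (flop). It rose 2.58-fold (1.37 ± 0.40, SD, n = 2; limma adjusted p = 0.0425, and 0.0549 with probes of a single array kept in the fit). The alpha subunit gene gpaA had no value on either array, nor did flbA, a regulator of G protein signalling that acts in conidiation. The beta subunit gene sfaD had only a flip value, -1.66, a ratio 3.16-fold lower and at percentile 5.05 of that array. The beta-like gene cpcB was near 0, at 0.20 and 0.06. The measured subunits therefore did not share a direction, although the lower value of sfaD rests on 1 array and no p-value is given for it.

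The gene rgsA encodes a regulator of G protein signalling, which shortens the active state of an alpha subunit. Its probes were the only pair in this list with values on both arrays, and they lay close together. Probe 119 was at 1.08 (flip) and 1.05 (flop), and probe 2911 at 0.76 and 1.13. Both rose, by 2.09-fold (1.07 ± 0.02, SD, n = 2; limma adjusted p = 0.0369) and 1.93-fold (0.95 ± 0.26; adjusted p = 0.0499). The second of these lost the call with robust moderation (adjusted p = 0.0528) and with probes of a single array kept (0.0630).

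The gene capA, placed on the list by its symbol, was at 0.73 on the flip and 1.23 on the flop array and missed the threshold (0.98 ± 0.35, SD, n = 2; limma adjusted p = 0.0582). It passed when each array was centred on its median (0.0417) and after scaling to a common spread (0.0168). The small GTPase genes did not pass: rasA was at -0.01 and -0.31, and rasB at -0.55 and -0.50 (limma adjusted p = 0.0826). The kinase gene schA, related to budding yeast Sch9, which acts beside protein kinase A on nutrient responses, was at 0.62 and 0.63 (limma adjusted p = 0.0633, and 0.0408 with the arrays scaled), with 0.25 for its other probe, which had a flip value only. In the order of the means over both arrays, gpaB stood highest, followed by pdeB, gprM, probe 119 of rgsA and capA without a clear gap, and pkaC stood lowest.

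**Figure D3:**
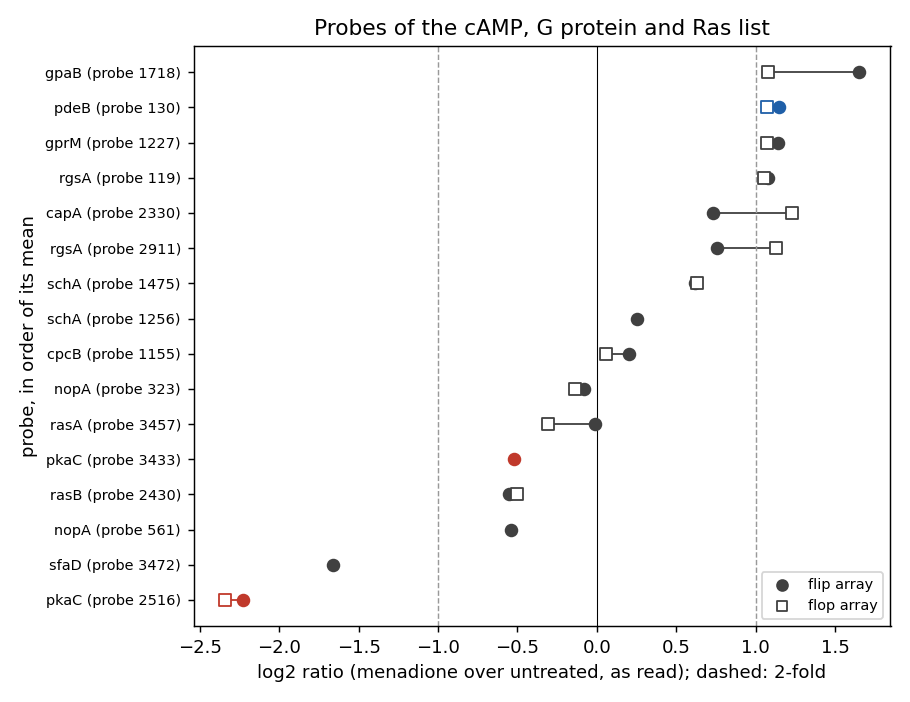
Log2 ratios of the 16 probes of the cAMP, G protein and Ras list that had a value, filled circles for the flip and open squares for the flop array, in the order of their means (or of the flip value where it is the only one); dashed lines mark 2-fold. The pkaC probe 2516 is the lowest, its other probe is at -0.52, and pdeB lies beside gprM and rgsA near 1.1.

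The genes with ratios most like those of pdeB and of pkaC were read as a description only, since both were chosen by these ratios. Likeness was the distance between the pairs of flip and flop log2 ratios, over 2 arrays, among probes with a symbol. The nearest to pdeB was gprM, at a distance of 0.01, followed by probe 119 of rgsA at 0.07. After them came ams1 at 0.09 (1.24 and 1.04), named for a vacuolar mannosidase of budding yeast, whose other probe was at -0.20 and -0.86, aclA at 0.13 (1.04 and 1.00), a subunit gene of ATP citrate lyase, and nde1 at 0.19 (1.21 and 1.25). Many probes lie in this region: 178 of the 2265 were within 0.5 of pdeB.

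Fewer probes had ratios like those of pkaC: 17 were within 0.5. The nearest with a symbol was esdC, which acts in early sexual development, at a distance of 0.12 (-2.27 and -2.23). Of the other genes listed as markers of sexual structures, nsdD was at 0.01 on the flip array alone, and the stuA probes were empty on both arrays. After esdC came rom2 at 0.26 (-2.47 and -2.44) and ccpA at 0.45 (-1.88 and -2.63). The methylcitrate synthase gene mcsA (-2.59 and -2.70) lay at 0.51 and chl1 (-2.01 and -2.89), named for a yeast DNA helicase, at 0.59. Of these 5 genes, 3 had another probe on both arrays, and each such probe was positive on both: rom2 at 0.12 and 0.67, ccpA at 0.12 and 1.16, and mcsA at 0.73 and 1.03. A low ratio not shared by another probe was thus seen for these genes too. They were picked by the low values of 1 probe, so a less extreme second probe can follow from that choice. The second pkaC probe, at -0.52 on the flip array alone, was negative, unlike the second probes of these 3 genes. This was not particular to pkaC. Genes known only by a locus tag were left out of the comparison, and 1 of them, ANIA_03452, had a similar pattern. Its probe 1460 was at -2.03 and -2.68, and its probe 1468 at -0.56 and -0.82.

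Other kinase and phosphatase genes with a symbol had ratios of both signs. So few genes, listed with earlier results of these data known, give a description and not a test. On a list matched in the same way, 7 genes had a probe with values on both arrays, of which 3 rose by limma and 0 fell (4 higher and 2 lower at an unadjusted p under 0.05), with a median of 0.93. Over all 2265 probes, 12.2% were called higher and 12.4% lower. The kinase gene imeB, related to the yeast meiotic kinase Ime2, had the largest increase among those that passed, at 1.55 and 1.69 (3.07-fold; limma adjusted p = 0.0351). The stress-activated MAP kinase gene sakA was at 0.90 and 1.09 (1.99-fold; adjusted p = 0.0403), and ptpA at 0.96 and 0.90 (1.91-fold; adjusted p = 0.0403), and its other probe had a flip value only, -0.49. With probes of a single array kept in the fit, imeB kept its call (0.0465), and sakA and ptpA each lost it (0.0524).

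The remaining members of that list missed the threshold. The gene pbs2, named for the yeast kinase that activates the Hog1 MAP kinase, was high on both arrays but unevenly so, at 2.44 and 1.07 (limma adjusted p = 0.0742, and 0.0314 with the arrays scaled). The polo kinase gene plkA was at 0.19 and 0.71. The calcineurin regulatory subunit gene cnaB was at -0.82 and -0.64 (adjusted p = 0.0559), and nimT, which encodes a phosphatase that activates the mitotic kinase, at -0.64 and -0.83 (adjusted p = 0.0560). Both were lower past the threshold after centring each array (0.0386 and 0.0454) or scaling (0.0330 and 0.0270). On the flip array alone, mpkB was at 0.50 and ireA at -0.19, and nimX and nimE had no value.

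Trehalose and glycogen turnover is a classical output of protein kinase A in budding yeast, and 2 genes of that theme had a symbol. Whether either gene depends on pkaC in this mould was not tested. The trehalase gene treA was at 2.66 on the flip and 3.72 on the flop array, and rose 9.13-fold (limma adjusted p = 0.0351). The gene ccg9, named for a clock-controlled gene of Neurospora that acts in trehalose synthesis, gave unlike results by probe. Probe 2968 was at 2.27 and 2.54 (5.30-fold higher; limma adjusted p = 0.0351), and probe 3293 at 0.15 and -0.02 (adjusted p = 0.741).

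The genes near pkaC and pdeB on their chromosomes had ratios of both signs. Gene order was taken from the RefSeq table of assembly ASM1142v1, and the 5 nearest genes with a probe on either side were read. Directly beside pkaC, tim13, a mitochondrial import gene, was at 0.12 and 0.25, and 2 genes away on the other side ANIA_06303 was at 1.67 and 2.0. Of the 6 flanking probes with values on both arrays, 1 rose and 2 fell by limma, with a median of -0.20, where 12.2% of all probes were called higher and 12.4% lower. Those that fell were chsE, a chitin synthase gene at -0.82 and -0.76, and ANIA_06295 at -1.36 and -1.15.

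Directly beside pdeB, ANIA_02741 was in the opposite direction, at -0.88 and -1.07 (limma adjusted p = 0.0410). Of the 10 flanking probes of pdeB with values on both arrays, 2 rose and 2 fell, against the same shares of all probes (12.2% and 12.4%), and their median was 0.29. The flanking genes reached up to 54 genes away from pdeB, since few genes of that stretch have a probe.

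**Figure D4:**
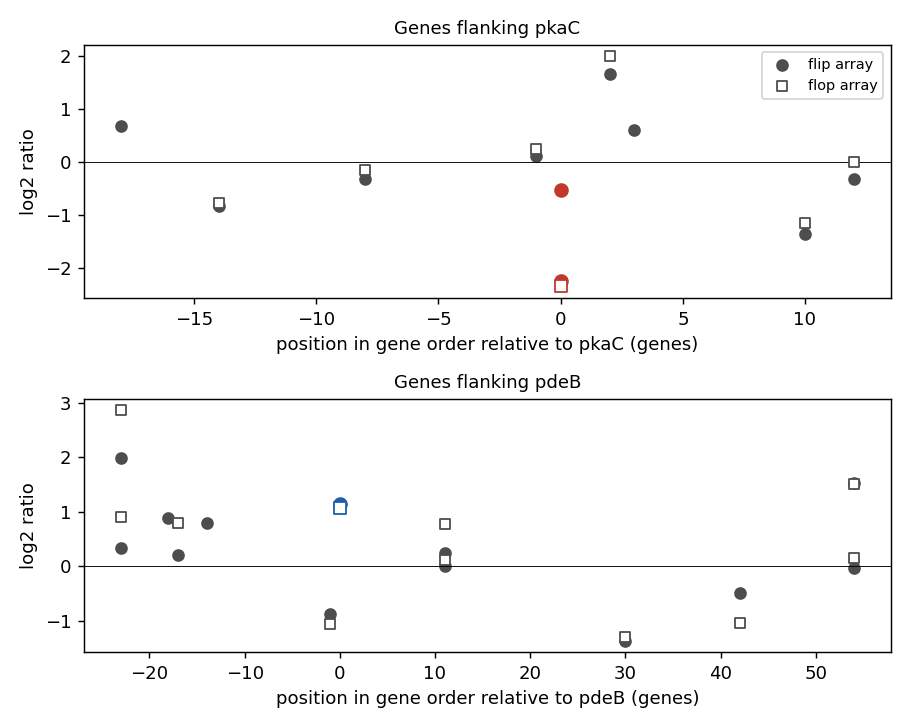
Log2 ratios of the genes flanking pkaC (upper panel) and pdeB (lower panel) that have a probe, against their position in gene order, with pkaC or pdeB in colour at 0; filled circles are the flip and open squares the flop array. The gene directly before pkaC is near 0 and the one directly before pdeB is at -0.88 and -1.07.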

How the data were processed

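Per the series' design text, the authors read the arrays with a GenePix 4000B scanner, calculated ratios with GenePix Pro 3.0 and used SAS for Windows version 8 for a LOESS normalization of each block. The deposited values were taken as log2 ratios, a base that the table does not state; no source used here gives their direction, the background correction or the rule for empty cells. The scanner files were not used here, so signal over background is unknown.

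Symbols came from the platform annotation, matched on Entrez gene IDs to the RefSeq table of ASM1142v1: 2779 of 3533 probes name 1 gene, 0 name several and 754 are unnamed here. No coordinates or sequences are printed. The members and gene lists were chosen with earlier results of these data known. The named genes followed a rule: every pkaC and pdeB probe, their 5 nearest genes with a symbol, the measured members of the lists and the flanking genes. Genes with similar proteins, also part of that rule, were not analysed here.

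For the 2265 probes with both values, the mean was compared with 0 by limma 3.58.1 (lmFit, eBayes; R 4.3.3), and p-values were adjusted after Benjamini and Hochberg, with 0.05 as the threshold; 1 residual degree of freedom remains per probe, so the test leans on the variance shared over probes. The script was tested on simulated data. Should both arrays hold RNA of the same extracts, n is 1 biological replicate and no p-value covers the spread between cultures. Alternatives were centring, scaling, robust moderation, other filters, averaged probes and a turned sign of the flop array.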

Additional observations from a re-analysis of the deposited data

How the results depend on the processing

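Each ratio already pairs exposed with untreated RNA on 1 array, and no further paired analysis was possible because both arrays belong to 1 group. On either array alone, pkaC lay between -2.34 and -2.23, pdeB between 1.07 and 1.15, and their difference between 3.38 and 3.41. With the sign of the flop array turned, pkaC (0.055) and the difference (-0.015) changed sign, pdeB was at 0.04, and no probe passed by limma (0 of 2265, 2 at an unadjusted p under 0.05; 0 of the 10 pathway probes, 0 unadjusted): the values of both genes rest on both columns running the same way. Read as natural logarithms, pkaC was at -3.30, pdeB at 1.60, their difference at 4.90, the other pkaC probe at -0.75 and the gap between pkaC probes at 2.47, all in log2 units. Averaging probes gave -1.86 for pkaC and 2.97 for the difference, and scaling gave 3.42. Probes past the threshold numbered 557 of 2265, 878 of 2265 after scaling and 305 of 3051 with probes of a single array kept. With probes averaged, 277 of 1455 genes passed. At least 2-fold on both arrays were 412 probes, 785 at 1.5-fold, 157 at 3-fold and 525 to 671 on a single array. Of the pathway probes without pkaC and pdeB, 4 passed, 5 after centring, 6 after scaling, 3 with robust moderation and 2 with probes of a single array kept, all higher; this last setting and the turned sign were added for this count after seeing the data. No limma fit was run on 1 array alone. Probes with a value on a single array have no spread of their own, so no p-value is given for them.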

Other observations

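In the RefSeq gene order, gpaB and sakA, the G protein alpha subunit gene and the stress MAP kinase gene, are direct neighbours with 0 genes between them; this was noticed after their values had been seen. Their log2 ratios were 1.65 and 1.08 for gpaB and 0.90 and 1.09 for sakA, on the flip and flop arrays. Both passed by limma (adjusted p = 0.0425 and 0.0403), and neither passed with probes of a single array kept in the fit (0.0549 and 0.0524).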
